A study of Homo sapiens with 18 samples.

Results

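The leucine tRNAs that read the codons CUN and UUA, that is, every listed leucine tRNA except the intron-containing Leu-CAA, were followed in WPMY-1, an established line of myofibroblasts from human prostate stroma. They were taken by name from the deposited table of adenosine sites, and they account for 35 of its 725 sites and 10 of its 180 tRNA genes. The largest families were tRNA-Leu-AAG with 15 sites in 4 genes and tRNA-Leu-CAG with 11 sites in 2 genes, beside Leu-TAG with 8 sites in 3 genes and Leu-TAA with 1 site in 1 gene. The assay, m1A-MAP-seq, sequences small RNA before and after pull-down with an antibody against N1-methyladenosine (m1A), and part of the pulled-down (IP) RNA is first demethylated with the enzyme AlkB. The cells carried a vector and were labelled wild type for TRMT61A, or they carried an shRNA against TRMT61A; each line gave an input, an IP without AlkB and an IP with AlkB, in all 6 groups of 3 libraries. The labels name no clone, time or dose and do not say whether replicates were separate cultures, so the p-values measure the spread between libraries, which may be technical. The level of TRMT61A was not measured in these tRNA counts, so the labels are the only evidence of the knockdown here.

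TRMT61A is the catalytic subunit of the enzyme that, with its partner TRMT6, methylates adenosine 58 in the T loop of cytosolic tRNAs. The methyl group blocks the pairing face of the base, so reverse transcriptase, which copies a tRNA from its 3′ end, tends to stop just before the site or to insert a wrong base. Leucine tRNAs have a long variable arm and an adenosine at position 73, the discriminator base, which leucyl-tRNA synthetase recognises. Leu-CAG decodes CUG; Leu-AAG carries an adenosine at wobble position 34 that the ADAT2/ADAT3 deaminase converts to inosine, which is read as guanosine.

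The sequences below are shown because the genes differ from each other at few bases, and because those bases decide which reads can be told apart. Each is the hg38 gene as the deposited table gives it, 5′ to 3′, with the anticodon and adenosine 58 in capitals.
Leu-CAG-1-1: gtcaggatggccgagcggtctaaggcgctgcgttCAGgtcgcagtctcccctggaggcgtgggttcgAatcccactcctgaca
Leu-CAG-2-1: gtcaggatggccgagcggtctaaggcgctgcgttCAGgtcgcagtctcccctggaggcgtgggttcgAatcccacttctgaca
Leu-AAG-2-3: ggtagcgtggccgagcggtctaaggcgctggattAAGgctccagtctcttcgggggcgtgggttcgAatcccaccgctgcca
Leu-AAG-4-1: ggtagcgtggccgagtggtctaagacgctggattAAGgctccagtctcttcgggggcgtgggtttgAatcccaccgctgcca
Leu-TAG-1-1: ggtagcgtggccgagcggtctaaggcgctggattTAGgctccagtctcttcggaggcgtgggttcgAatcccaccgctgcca
Leu-TAA-1-1: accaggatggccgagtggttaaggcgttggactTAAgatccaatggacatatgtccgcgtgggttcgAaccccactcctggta

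Both Leu-CAG genes differ by 1 base, C77T, counted from 1 at the 5′ end of the gene with the base of Leu-CAG-1-1 first, and 82 of their 83 nucleotides are identical. Leu-CAG-1-1 (chr1:161441533-161441615, plus strand) stands in the table for 7 identical copies and Leu-CAG-2-1 (chr16:57299951-57300033, plus strand) for 2. The Leu-AAG and Leu-TAG genes share 91.5% to 98.8% of their 82 nucleotides. Leu-AAG-2-3 (chr14:20610132-20610213, plus strand) and Leu-AAG-4-1 (chr6:28478623-28478704, minus strand) differ by C16T, G25A and C65T. Leu-TAG-1-1 (chr17:8120314-8120395, minus strand) is separated from Leu-AAG-1-3 (chr5:181174044-181174125, minus strand) by A35T alone, the first base of the anticodon, so that reads covering only their 3′ parts belong to either. Leu-TAA-1-1 (chr6:144216547-144216629, plus strand) has its anticodon at nucleotides 34 to 36, 1 nucleotide earlier than the other genes. Leu-AAG-3-1 (chr6:28989002-28989083, plus strand), Leu-TAG-2-1 (chr14:20625370-20625451, plus strand) and Leu-TAG-3-1 (chr16:22195711-22195792, minus strand) complete the set. All 10 genes have an adenosine at position 58 and 10 of 10 lie at a RefSeq tRNA gene of the same coordinates, but adenosine 58 was listed as a site in 5 of them, both Leu-CAG genes and Leu-AAG-2-3, Leu-AAG-3-1 and Leu-AAG-4-1. In 9 genes this adenosine follows TTC and 1 further base; Leu-AAG-4-1 has TTT there. Below, positions follow the usual tRNA numbering, in which position 58 lies 15 nucleotides before the 3′ end.

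Input libraries held 225301 to 307981 reads summed over all listed sites, and IP libraries 115580 to 890428. The leucine sites took 1.62% to 1.79% of these reads in vector input and 1.21% to 1.23% in knockdown input, and 7.27% to 8.28% and 4.88% to 7.02% in the AlkB-untreated IP. Site counts in the table end near 8000 reads, with 8015 as the highest, and Leu-CAG-1-1 reached 8001 in vector IP replicate 2 and 8003 in knockdown IP replicate 1, so its depth there is only a lower bound. At least 20 reads in each library, the minimum for a test, were present at 25 of 35 leucine sites in input of both lines and at 10 sites, all of Leu-CAG, in the AlkB-untreated IP of both lines and the AlkB-treated IP of the knockdown. No leucine site with that depth had a mean mismatch rate of 5% or more in any group.

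In input RNA, Leu-CAG made up most of the leucine reads, and its share was lower in the knockdown while that of Leu-AAG was higher. At position 64, an adenosine listed for 9 of the 10 genes, Leu-CAG held 83.9%, 81.7% and 76.4% of the leucine reads in the vector libraries and 66.0%, 70.3% and 67.7% in the knockdown libraries. Leu-AAG held 9.85%, 11.5% and 15.5% in vector and 23.3%, 20.1% and 21.2% in knockdown. Neither anticodon overlapped between the lines, and these shares do not depend on how libraries are scaled. They are parts of a whole, so a lower share of Leu-CAG goes with higher shares elsewhere, and the anticodons are not separate observations. With 3 against 3 libraries an exact permutation test cannot give a p below 0.1, so lack of overlap, here and below, is weak evidence alone. How many of all tRNAs also lack overlap was not counted. Leu-TAG went from 6.07% ± 1.34 to 8.61% ± 0.745 and Leu-TAA, which rests on 6 to 24 reads a library, from 0.978% ± 0.548 to 1.86% ± 0.203 (SD, n = 3), again without overlap.

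The same shift was seen per gene in the reads at the 3′ end. These are largely the same reads as at position 64, so this is not a separate observation. They were taken as the median read count at sites within 8 nucleotides of the end. Scaling was to CPM (reads relative to the TMM-scaled total of such reads over all tRNAs). Leu-CAG-1-1 had 825, 605 and 687 such reads in vector and 436, 460.5 and 349 in knockdown libraries. After scaling this was 16613 ± 370 against 13653 ± 1407 CPM (SD, n = 3), a fall of the fitted level by 0.22 on the log2 scale (SE 0.084, edgeR quasi-likelihood test, adjusted p = 0.0266). Leu-CAG-2-1 had 433, 283 and 284 reads in vector and 163, 198 and 176.5 in knockdown, and its fitted level fell by 0.34 (SE 0.11, edgeR adjusted p = 0.00911). All 3 knockdown libraries lay below all 3 vector libraries for both genes on the scaled values. This fall was not particular to Leu-CAG. The 4 testable Leu-CAA genes were all called lower as well, with log2 changes from -0.62 to -0.27 and a median of -0.53.

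Leu-AAG-2-3 went the other way, with 35, 37 and 51 reads in vector and 51, 46 and 47 in knockdown. Scaled, these were 982 ± 255 and 1586 ± 115 CPM (SD, n = 3), a log2 rise of 0.76 (SE 0.25, edgeR adjusted p = 0.00911). Leu-AAG-4-1 rose from 928 ± 53.9 to 1463 ± 404 CPM (SD, n = 3; log2 0.72, SE 0.25, edgeR adjusted p = 0.0142), and its groups did not overlap either. Leu-TAG-1-1 had 980 ± 142 and 1277 ± 243 CPM (SD, n = 3), with overlapping groups and an edgeR adjusted p of 0.166. Of the 5 leucine genes tested, 4 passed the threshold of 0.05, 2 higher and 2 lower, where 41.9% of the 74 tRNA genes tested did (31 genes, 20.3% higher and 21.6% lower). The 5 had a median log2 change of 0.45 and the 74 one of 0.09. Leu-TAG-2-1 was too low for this test, with 7 to 12 reads in vector and 6 to 11 in knockdown. Leu-AAG-2-3, Leu-AAG-4-1 and Leu-TAG-1-1 are identical over their last 17 nucleotides, and reads confined there fit all of them. The 2 higher calls therefore cannot be taken as separate observations.

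Counting position 64 as part of the 3′ end, a window added after the data were examined, brought in the genes without a nearer site. Leu-AAG-1-3 then rose by a log2 of 0.98 (edgeR adjusted p = 0.00230) and Leu-AAG-3-1 by 0.67 (edgeR adjusted p = 0.0394). Leu-TAA-1-1 had a log2 difference of 0.79 (edgeR adjusted p = 0.0511) and Leu-TAG-3-1 one of 0.50 (edgeR adjusted p = 0.156). In this window all 4 Leu-AAG genes were called higher and both Leu-CAG genes lower. That was 6 of 9 leucine genes, against 34.6% of 81 tRNA genes. The 4 Leu-AAG genes, Leu-TAG-1-1 and Leu-TAG-3-1 are identical over their last 16 nucleotides. Reads that stop before position 58 lie within this stretch and fit each of these 6 genes. The 4 Leu-AAG calls therefore cannot be taken as separate observations.

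**Figure D1:**
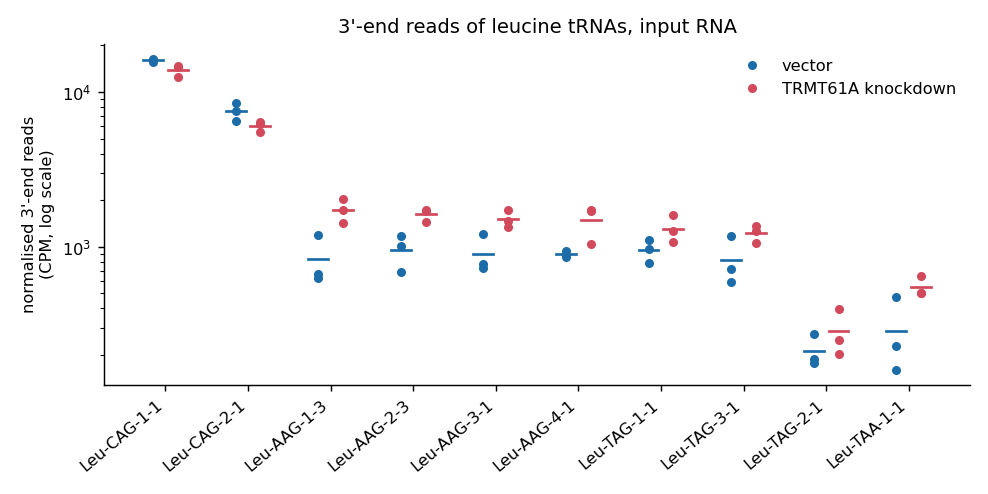
Scaled 3′-end reads (CPM, log axis) of the 10 leucine tRNA genes in input, with position 64 counted as part of the 3′ end; points are the 3 vector (blue) and 3 knockdown (red) libraries and bars their means. The Leu-CAG genes lie lower in the knockdown and the Leu-AAG genes higher, while the groups overlap in the 3 Leu-TAG genes.

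The scaling decided which of these calls were made but not their direction. Over all tRNAs the 3′-end reads came to 52114, 39523 and 44679 in vector and 28422, 30147 and 26392 in knockdown. Unscaled counts of Leu-AAG-2-3 and Leu-AAG-4-1 overlapped between the lines, so the rise of both depends in part on these lower totals. Without TMM factors the median of all 74 genes moved from 0.09 to 0.23 and only the Leu-AAG genes were called, with 0.90 and 0.86; Leu-CAG-1-1 was at -0.08 and Leu-CAG-2-1 at -0.21. Called genes of all tRNAs were higher in 68% of cases then, against 48.4% with TMM. With reads over all listed sites as library size, added after the data were examined, the median of all genes was -0.33, 8.33% of the called genes were higher and only the Leu-CAG genes were called, at -0.62 and -0.74, with Leu-AAG-2-3 at 0.37 and Leu-AAG-4-1 at 0.32. Relative to the median of all genes the log2 changes ran from -0.31 to -0.30 for Leu-CAG-1-1 and from 0.67 to 0.69 for Leu-AAG-2-3. A change of scaling shifts all genes by nearly the same amount. These relative values therefore stay alike by construction and are no separate support. Leaving out vector replicate 1 ended the calls of Leu-AAG-2-3 and Leu-CAG-2-1 (both adjusted p = 0.0914), and leaving out vector replicate 3 or knockdown replicate 3 ended that of Leu-CAG-1-1 (0.0779 and 0.0859). Leaving out knockdown replicate 1 ended those of Leu-CAG-2-1 (0.101) and Leu-AAG-4-1 (0.0667), and leaving out knockdown replicate 2 that of Leu-AAG-4-1 (0.127). In bulk RNA, fewer cells of a type and less RNA per cell cannot be told apart, and a 3′-end read counts a cDNA rather than a tRNA molecule.

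The second question was whether reverse transcriptase passed adenosine 58 more often after knockdown. Read-through is given as the reads at position 58 as a percentage of the reads at the 3′ end. In Leu-CAG-1-1 it was 13.6%, 16.7% and 13.2% in the vector input libraries and 18.6%, 23.2% and 21.5% in the knockdown. Every knockdown library lay above every vector library, with means of 14.5% ± 1.9 and 21.1% ± 2.35 (SD, n = 3), and the log2 rise of 0.54 passed the test (SE 0.14, limma adjusted p = 0.0431). Leu-CAG-2-1 had 19.6%, 30.7% and 32.0% in vector and 34.97%, 42.4% and 35.1% in knockdown, likewise without overlap, but its log2 difference of 0.48 did not pass (SE 0.22, limma adjusted p = 0.195). Summed over both genes, Leu-CAG read-through went from 18.5% ± 2.76 to 26.0% ± 2.98 (SD, n = 3; log2 rise 0.50, SE 0.15, limma adjusted p = 0.0484), where 37.5% of 24 anticodons were called, all higher.

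Leu-AAG is here the sum of Leu-AAG-2-3 and Leu-AAG-4-1, the only Leu-AAG genes with both counts. Its read-through was lower than that of Leu-CAG in each of the 6 input libraries. No Leu-AAG difference between the lines passed the test on all libraries. Leu-AAG-2-3 read-through was 14.3%, 5.41% and 11.8% in vector and 1.96%, 4.35% and 14.9% in knockdown (log2 difference -0.80, SE 0.70, limma adjusted p = 0.377). Leu-AAG-4-1, the gene with TTT in the T loop, had 2.27%, 6.06% and 4.88% in vector and 4.00%, 1.82% and 3.45% in knockdown (log2 difference -0.39, SE 0.40, limma adjusted p = 0.417). Groups overlapped in both genes, whose values rest on 1 to 7 reads at position 58 in each library. Most of their 3′-end reads did not reach position 58. Those reads lie within the last 16 nucleotides, which 6 Leu-AAG and Leu-TAG genes share. How such reads were shared out is not given, and the read-through values of both genes depend on it. Leu-AAG-2-3 and Leu-AAG-4-1, summed, had 7.33% ± 1.51 and 5.49% ± 4.36 (SD, n = 3, log2 -0.62, limma adjusted p = 0.321). Without knockdown replicate 3 the difference of this sum was -1.18 with a limma adjusted p of 0.0173. Leu-CAG read-through was 2.06, 3.70 and 2.16 times that of Leu-AAG in the vector libraries and 7.76, 9.77 and 2.48 times in the knockdown libraries, so this ratio overlapped between the lines.

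Of the 4 leucine genes tested, 1 was called, against 30.8% of the 52 tRNA genes tested (16, all higher); the median log2 difference of the 4 was 0.05 and that of the 52 was 0.44. Among the 56 tRNAs with at least 20 3′-end reads in each vector input library, whose median read-through was 13.9%, Leu-AAG-4-1 ranked the 10th from the lowest, Leu-AAG-2-3 the 19th, Leu-CAG-1-1 the 35th and Leu-CAG-2-1 the 47th. The 4 testable Leu-CAA genes had log2 differences from 0.30 to 0.51 with 1 call, and together they were at 25.6% ± 4.28 in vector and 33.2% ± 5.15 in knockdown (SD, n = 3). In each of the 6 input libraries Leu-CAG-2-1 was read through more than Leu-CAG-1-1, by 1.45 to 2.42 times in vector and 1.63 to 1.88 times in knockdown, although both share the whole sequence around adenosine 58. The call of Leu-CAG-1-1 remained without knockdown replicate 1 (limma adjusted p = 0.0437) and was lost without any other library: leaving out vector replicate 1, 2 or 3 gave an adjusted p of 0.121, 0.0694 or 0.102, and leaving out knockdown replicate 2 or 3 gave 0.122 or 0.106. The summed Leu-CAG call was lost without vector replicates 1 and 3 (0.111 and 0.109) and knockdown replicates 2 and 3 (0.126 and 0.114).

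**Figure D2:**
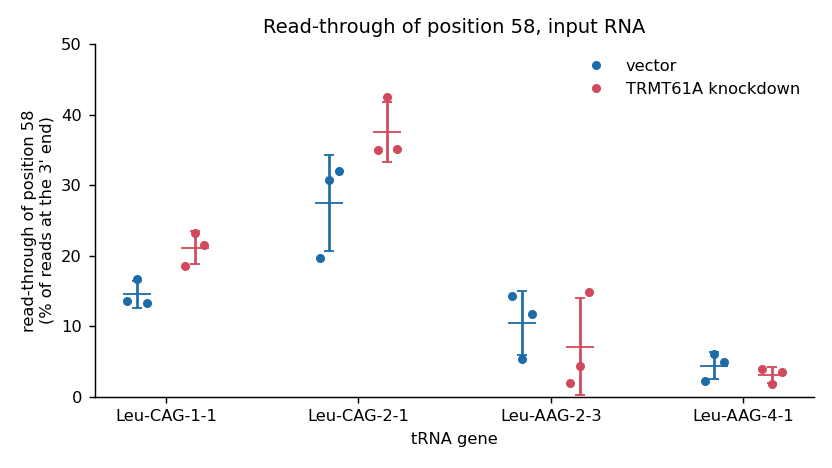
Read-through of position 58 in input (reads at position 58 as % of 3′-end reads) for the 4 leucine tRNAs with both values; points are libraries, bars the mean and SD of 3. In both Leu-CAG genes the knockdown libraries lie above the vector libraries, and in both Leu-AAG genes the lines overlap.

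The loss of reads lay mostly between positions 59 and 58. In input, 78.0% ± 3.39 of the position 64 reads of Leu-CAG-1-1 reached position 59 in vector and 79.9% ± 2.96 in knockdown (SD, n = 3). From position 59 to 58, 18.5% ± 2.03 passed in vector and 26.4% ± 3.29 in knockdown (log2 difference 0.51, SE 0.14, limma adjusted p = 0.0542). For Leu-CAG-2-1 this step was 32.6% ± 7.25 and 43.8% ± 3.30 (SD, n = 3; limma adjusted p = 0.164). The step was 5.42% ± 2.36 and 3.96% ± 1.59 in Leu-AAG-4-1, 12.3% ± 5.83 and 7.10% ± 6.57 in Leu-AAG-2-3, and 4.22% ± 4.02 and 0.758% ± 1.31 in Leu-AAG-3-1 (SD, n = 3; vector first). Of these 5 genes 0 were called by limma (1, Leu-CAG-1-1, at an unadjusted p under 0.05, and Leu-CAG-1-1 again with a pseudocount of 2 or a minimum of 50 reads), against 18.8% of 32 tRNAs. This measure was added after the data were examined.

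In the AlkB-untreated IP 73.3% to 100% of the Leu-CAG reads ran through position 58, by gene and library. Leu-CAG-1-1 read-through was 89.8%, 99.99% and 99.97% in the vector IP and 100%, 78.1% and 99.8% in the knockdown IP, above every input value; its counts in vector replicate 2 and knockdown replicate 1 are at the depth limit at both ends of this ratio. Against the input of the same replicate number this was a log2 rise of 2.74 in vector (SE 0.15, limma adjusted p = 0.00496) and of 2.12 in knockdown (SE 0.25, limma adjusted p = 0.00966). Leu-CAG-2-1 had 77.7%, 99.92% and 99.95% in vector and 98.6%, 73.3% and 77.6% in knockdown, rises of 1.77 (SE 0.15, limma adjusted p = 0.00598) and 1.14 (SE 0.25, limma adjusted p = 0.0353). Both leucine genes tested were called in both lines, beside 53.3% of 45 tRNAs in vector and 45.5% of 44 in knockdown. The median log2 rise over all tRNAs was 1.77 in vector and 1.08 in knockdown, and the Leu-CAA genes rose by 1.79 to 1.93 and 1.24 to 1.41. Without replicate 3 both vector calls were just lost (both adjusted p = 0.0510), as were both knockdown calls (0.142 and 0.269); that of Leu-CAG-2-1 in the knockdown was also lost without replicate 1 (0.0533) or 2 (0.0776).

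Between the lines, IP read-through of Leu-CAG-1-1 differed by a log2 of -0.07 (SE 0.19) and that of Leu-CAG-2-1 by -0.16 (SE 0.22), both with a limma adjusted p of 0.992. Here 0 of the 2 leucine genes and 0% of 44 tRNAs were called (5 of the 44 at an unadjusted p under 0.05, none of them leucine). No difference between the AlkB-treated and untreated IP passed the test in Leu-CAG, and all were below 0. In the vector the AlkB-treated IP of Leu-CAG-1-1 had 63.8%, 99.8% and 99.3%, a log2 difference from the untreated part of -0.17 (SE 0.30, limma adjusted p = 0.801), and in the knockdown 59.7%, 97.4% and 81.2% (-0.24, SE 0.38, limma adjusted p = 0.836). Leu-CAG-2-1 had 63.0%, 70.99% and 114% in the AlkB-treated IP of the vector and 49.4%, 118% and 32.5% in that of the knockdown; values above 100% mean that more reads covered position 58 than the 3′ end. The differences from the untreated part were -0.20 (SE 0.31) in vector and -0.52 (SE 0.54) in knockdown, with limma adjusted p of 0.763 and 0.749. Of the 2 leucine genes limma called 0 in either line (0 at an unadjusted p under 0.05), while 8.89% of 45 tRNAs were called in vector, all higher with AlkB, and 0% of 39 in knockdown. Within the AlkB-treated IP the knockdown differed from the vector by -0.14 (SE 0.35, limma adjusted p = 0.791) in Leu-CAG-1-1 and by -0.48 (SE 0.54, limma adjusted p = 0.769) in Leu-CAG-2-1, where 0% of 44 tRNAs were called by limma (0 at an unadjusted p under 0.05).

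**Figure D3:**
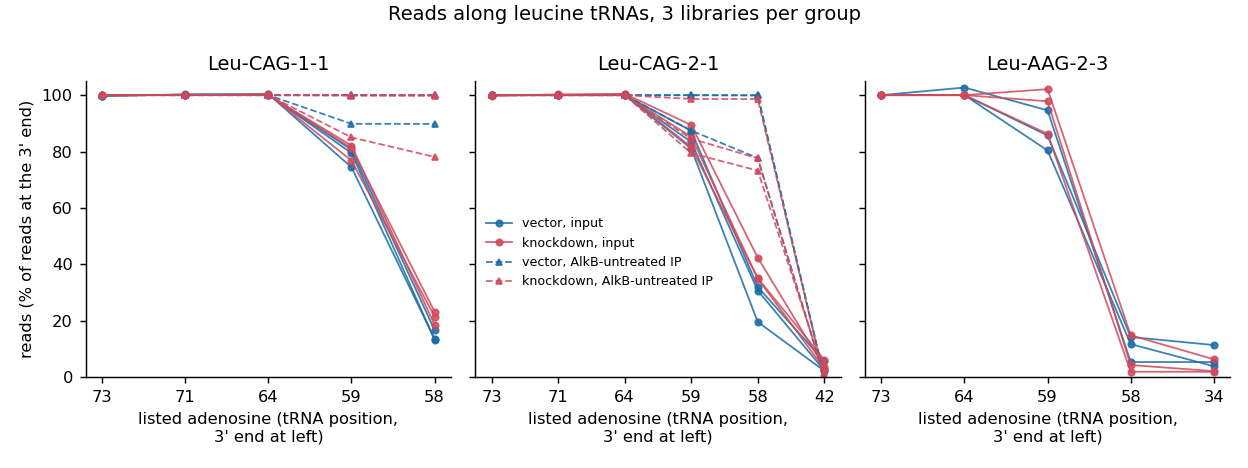
Reads at each listed adenosine as % of the 3′-end reads, read from the 3′ end at the left, for Leu-CAG-1-1, Leu-CAG-2-1 and Leu-AAG-2-3; each line is 1 library, solid for input and dashed for AlkB-untreated IP, blue for vector and red for knockdown. Input reads drop between positions 59 and 58, IP reads of Leu-CAG mostly do not, and in Leu-CAG-2-1 few reads of either kind reach position 42.

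Upstream of position 58 the pattern turned in Leu-CAG-2-1. Position 42, in the anticodon arm, is listed for Leu-CAG-2-1, and 3.47% ± 1.87 of its 3′-end reads reached it in vector input and 4.28% ± 1.71 in knockdown input (SD, n = 3). In the AlkB-untreated IP the shares were 0.0897%, 0.0563% and 0.107% in vector, on 4, 2 and 4 reads, and 0.0442%, 1.38% and 0.147% in knockdown. The vector IP values lie below all input values, so reads of Leu-CAG-2-1 that passed position 58 in the vector IP seldom reached position 42. In the AlkB-treated IP they were 1.74%, 0.180% and 0.412% in vector and 3.81%, 21.2% and 3.8% in knockdown, the highest from 169 reads of replicate 2. Position 42 is also listed for Leu-TAG-1-1, and there the vector IP was different. In AlkB-untreated replicate 1, 569 reads of this gene covered position 42, against 743 at position 73. Hardly any reads covered its position 42 in the other libraries. No test was run on these shares.

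Reads of Leu-AAG and Leu-TAG varied widely between IP libraries, and between positions within a library. At position 64 the 6 genes listed there, all but Leu-TAG-2-1, had 218, 193 and 290 reads in vector input and 290, 263 and 238 in knockdown input, or 22.9% ± 6.36 and 44.5% ± 4.32 of the Leu-CAG reads (SD, n = 3). In the AlkB-untreated IP they had 1488, 1800 and 4 reads in vector and 11, 24 and 12 in knockdown. Relative to Leu-CAG this was 12.8%, 15.6% and 0.0385% in vector and 0.0878%, 1.12% and 0.147% in knockdown, each below the input library of the same number. Leu-CAG-1-1 was at the depth limit in vector replicate 2 and knockdown replicate 1, so 15.6% and 0.0878% are upper bounds. At position 64 vector replicates 1 and 2 thus stood apart from the other 4 untreated IP libraries. At position 59 the counts were 1486, 4 and 5 in vector and 12, 170 and 11 in knockdown, so vector replicate 1 and knockdown replicate 2 stood apart there; 155 of the 170 reads were of Leu-AAG-3-1. In the AlkB-treated IP the 6 genes had 19.0%, 0.696% and 7.47% of the Leu-CAG reads at position 64 in vector and 7.03%, 0.733% and 4.15% in knockdown, the first above its input library. No test between lines was run on these reads.

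The reads of vector IP replicates 1 and 2 also differed from each other in shape. In vector IP replicate 1, 99.9% of the 1488 reads at position 64 were present at position 59, with 132 to 167 reads in 5 genes and 742 in Leu-TAG-1-1. In vector IP replicate 2, 0.222% of the 1800 reads were present at position 59, 4 reads in all, and each of the 6 genes had 280 to 320 reads at position 64. These 6 genes are identical over their last 16 nucleotides, which include position 64, so reads confined to that stretch fit each of them alike. The 3′ stretches below, with adenosine 58 in capitals, show the shared end and, as the last line, the base that sets Leu-TAG-2-1 apart.
Leu-AAG-1-3: tgggttcgAatcccaccgctgcca
Leu-AAG-3-1: tgggttcaAatcccaccgctgcca
Leu-AAG-4-1: tgggtttgAatcccaccgctgcca
Leu-TAG-3-1: tgggttcgAatcccaccgctgcca
Leu-TAG-2-1: tgggttcgAatcccaccactgcca

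In the AlkB-treated IP the same 6 genes, summed, had more reads at position 59 than at position 64, nearer to the 3′ end. The counts at positions 59 and 64 were 177 and 116, 287 and 10, and 392 and 162 in the vector libraries, and 584 and 323, 211 and 17, and 55 and 21 in the knockdown libraries, so position 59 was higher in 6 of 6. Leu-TAG-3-1 had 65, 167 and 215 reads at position 59 in vector and 26, 3 and 23 at position 64. Leu-AAG-3-1 and Leu-AAG-4-1 did not share this, with 8 against 25 and 4 against 30 reads in the vector libraries together, and 18 against 19 and 24 against 25 in the knockdown. Summed over the libraries of a group, 4 of 8 leucine genes had more reads at 59 than at 64 in each line after AlkB, while 3 of 10 other tRNAs did in vector and 0 in knockdown. Without AlkB, 3 of 8 leucine genes and 0 of 10 others did in the knockdown IP, where the 6 genes together had 193 reads at position 59 and 47 at position 64, and 0 of 8 and 0 of 10 in the vector IP. In input 0 of 8 and 0 of 10 did in either line.

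**Figure D4:**
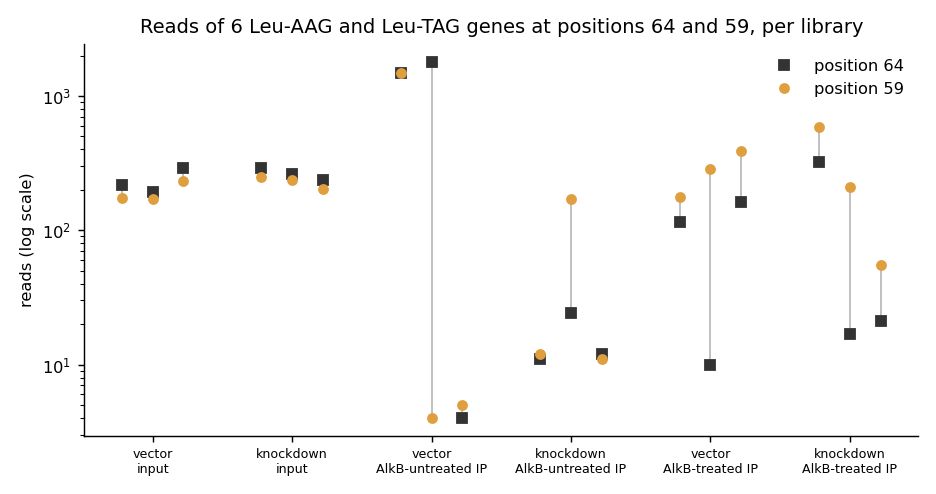
Reads of the 6 Leu-AAG and Leu-TAG genes at position 64 (squares) and position 59 (circles) in each library (log axis), libraries 1 to 3 from left to right within a group. Both counts lie close together in input, position 64 stands far above position 59 in vector AlkB-untreated IP replicate 2, and position 59 is higher in all 6 AlkB-treated libraries and in knockdown AlkB-untreated IP replicate 2 (170 against 24), and by 1 read in vector replicate 3 and knockdown replicate 1 of the untreated IP.

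Mismatch rates at adenosine 58 of Leu-CAG had group means of at most 1.03% in the IP, and no difference between the lines passed the test. In the AlkB-untreated IP, Leu-CAG-1-1 had 43 mismatched of 6425 reads, 61 of 8000 and 49 of 6664 in vector, and 53 of 8002, 8 of 1163 and 22 of 4068 in knockdown. The rates were 0.722% ± 0.0479 and 0.630% ± 0.0786 (SD, n = 3). Leu-CAG-2-1 had 15 of 3466, 22 of 3551 and 14 of 3735 in vector and 23 of 4461, 4 of 477 and 18 of 3170 in knockdown, which is 0.476% ± 0.128 and 0.641% ± 0.173 (SD, n = 3). After AlkB, Leu-CAG-1-1 was at 0.475% ± 0.420 in vector and 1.03% ± 0.364 in knockdown, and Leu-CAG-2-1 at 0.409% ± 0.370 and 0.103% ± 0.107 (SD, n = 3). In input, where few reads reach the site, Leu-CAG-1-1 had 2 mismatches in 304 reads of the 3 vector libraries (0.658%, 95% exact interval 0.0798% to 2.36%) and 1 in 263 of the knockdown (0.380%, 0.00963% to 2.10%). Leu-CAG-2-1 had 3 in 263 and 1 in 203 reads (1.14%, 0.236% to 3.30%, and 0.493%, 0.0125% to 2.71%). These intervals cover counting error only.

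Adenosine 58 of the Leu-AAG genes had too few reads for a test. In input Leu-AAG-2-3 had 0 mismatches in 13 vector reads, which allows a rate of up to 23.1%, and 0 in 10 knockdown reads. Leu-AAG-3-1 had 0 in 4 and 0 in 1, and Leu-AAG-4-1 0 in 5 and 0 in 4. In vector IP replicate 1 they had 1 of 167, 0 of 159 and 2 of 142, and in knockdown IP replicate 2 Leu-AAG-3-1 had 1 of 174.

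Across positions, the order of the IP mismatch rates differed between the Leu-CAG genes and groups. In vector AlkB-untreated IP, Leu-CAG-1-1 had 0.722% at position 58, 0.277% ± 0.0978 at 59, 0.346% ± 0.0398 at 64, 0.121% ± 0.0382 at 71 and 0.0655% ± 0.0246 at 73 (SD, n = 3). All 3 libraries of position 58 lay above all those of the other positions in this gene and group. Leu-CAG-2-1 had 0.641%, 0.252%, 0.463%, 0.351% and 0.0703% from position 58 to 73 in the knockdown AlkB-untreated IP, and 0.103%, 0.371%, 0.485%, 0.277% and 0.400% in the knockdown AlkB-treated IP, where position 58 was the lowest (means, n = 3). For the other tRNAs in the vector AlkB-untreated IP, the medians of the site means were 0.620%, 0.501%, 0.364%, 0.123% and 0.0866% from position 58 to 73. These rest on 43, 33, 6, 15 and 25 sites, so the tRNAs compared differ between positions. In input the highest rate of Leu-CAG-1-1 was at position 59, with 7 of 614, 8 of 488 and 7 of 546 in vector (1.35% ± 0.257) and 3 of 358, 4 of 374 and 3 of 268 in knockdown (1.01% ± 0.150, SD, n = 3). Among the other anticodons, input rates at position 59 were 0 to 2.11% as group means, on 20 to 53 reads a library.

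**Figure D5:**
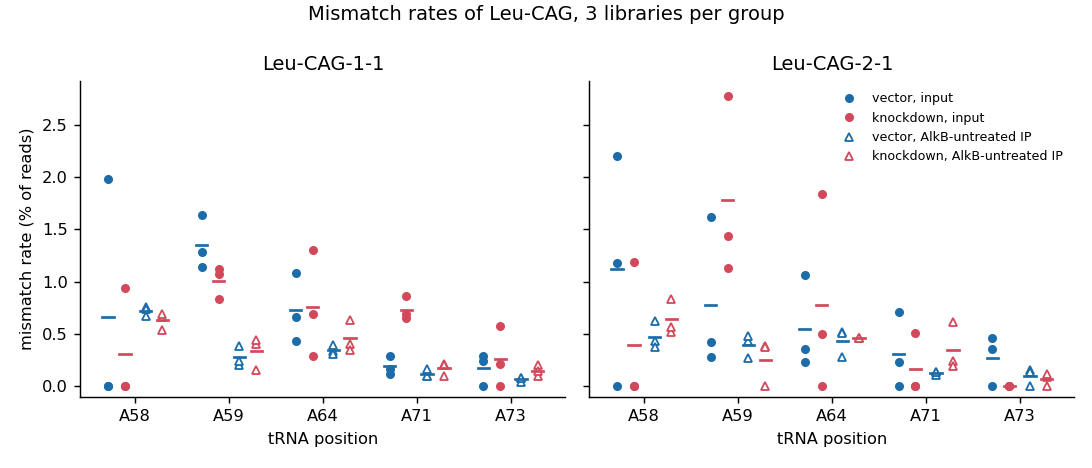
Mismatch rates (% of reads) of the 5 adenosines from position 58 to 73 in both Leu-CAG genes; filled circles are input, open triangles AlkB-untreated IP, blue vector and red knockdown, with bars at the means of 3 libraries. Input points scatter up to 2.78% and IP points stay below 1%, with the highest, 0.839%, at position 58 of Leu-CAG-2-1 in knockdown replicate 2.

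No leucine site passed the mismatch test in any of 7 comparisons, and 0% of all tested sites did. The quasi-binomial test called 0 of 25 leucine sites between the lines in input (0 at an unadjusted p under 0.05, of 428 sites in all 1), 0 of 10 in the AlkB-untreated IP (0 unadjusted, 3 of 255 in all) and 0 of 10 in the AlkB-treated IP (0 unadjusted, 3 of 372 in all). AlkB-treated against untreated gave 0 of 10 in vector (0 unadjusted, 1 of 293 in all) and 0 of 10 in knockdown (0 unadjusted, 0 of 271 in all). IP against input gave 0 of 10 in vector (1 unadjusted, 7 of 270 in all) and 0 of 10 in knockdown (0 unadjusted, 1 of 247 in all). The median difference of the leucine sites ranged from -0.21 to 0.05 percentage points over these 7 comparisons. In each comparison fewer of all sites had an unadjusted p under 0.05 than this threshold gives by chance. The test was thus conservative, and its lack of calls does not show that the rates were equal.

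The sites with the smallest p show the size of what was left. Between the lines in input, position 71 of Leu-CAG-1-1 differed by 0.54 percentage points, from 4 mismatches in the 3 vector libraries to 9 in the knockdown (quasi-binomial adjusted p = 0.952). Position 64 of Leu-AAG-2-3 differed by -1.61, position 73 of Leu-CAG-2-1 by -0.27 and position 59 of Leu-CAG-2-1 by 1.01 percentage points, with the same adjusted p. In the AlkB-untreated IP the knockdown minus vector differences were 0.12 at position 64, 0.08 at position 73 and 0.05 at position 71 of Leu-CAG-1-1, and 0.22 at position 71 of Leu-CAG-2-1 (quasi-binomial adjusted p = 0.992). In the AlkB-treated IP they were -0.31 at position 58, 0.13 at position 59 and 0.20 at position 73 of Leu-CAG-2-1 and 0.04 at position 59 of Leu-CAG-1-1 (adjusted p = 1).

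The AlkB effect was of like size. In vector the treated minus untreated differences were 0.07 at position 73 and 0.22 at position 71 of Leu-CAG-1-1, and -0.15 at position 59 and 0.08 at position 71 of Leu-CAG-2-1 (quasi-binomial adjusted p = 0.953). In knockdown they were -0.54 at position 58 and 0.33 at position 73 of Leu-CAG-2-1, and 0.03 at position 73 and -0.28 at position 64 of Leu-CAG-1-1 (adjusted p = 0.951). Leu-CAG-1-1 at position 59 had the smallest p among the leucine sites in the IP against input of the vector, where it was lower in the IP by 1.08 points (IP minus input -1.08, 3 of 3 replicates, unadjusted p = 0.0310, quasi-binomial adjusted p = 0.896). Next came -0.38 at position 64 and -0.11 at position 73 of this gene and -0.19 at position 71 of Leu-CAG-2-1. In the knockdown these were -1.53 at position 59 of Leu-CAG-2-1 and -0.56, -0.68 and -0.30 at positions 71, 59 and 64 of Leu-CAG-1-1 (adjusted p = 0.979).

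Adenosines of the anticodon were seldom covered. Wobble position 34 is listed for Leu-AAG-1-3 and Leu-AAG-2-3; in input 0 of 12 vector reads and 0 of 13 knockdown reads of both genes had a mismatch there, which allows rates of up to 25.0% and 23.1%. In the AlkB-untreated IP 3 reads covered it, 2 of Leu-AAG-1-3 in vector replicate 1 and 1 of Leu-AAG-2-3 in knockdown replicate 1, and all 3 had a mismatch; none covered it after AlkB. Which base was read is not analysed here. Position 35 of Leu-TAG-1-1, the middle base of its anticodon, had 7 mismatches in 569 reads of vector IP replicate 1 (1.23%, 95% exact interval 0.496% to 2.52%), and position 42 had 3 in the same 569 (0.527%, 0.109% to 1.53%). In each of the other libraries at most 3 reads covered either site. Position 42 of Leu-CAG-2-1 had 0 mismatches in 33 vector and 23 knockdown input reads, 1 in 17 in the knockdown AlkB-untreated IP and 1 in 266 in the knockdown AlkB-treated IP. Position 67 of Leu-TAG-2-1 had 0 mismatches in 6 to 12 reads of each input library, and position 64 of Leu-TAA-1-1 had 1 of 24, 0 of 6 and 0 of 10 in vector and 0 of 19, 0 of 16 and 0 of 14 in knockdown input.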

How the data were processed

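Members and gene lists were chosen with earlier results of these data known. The authors deposited, per the file headers, raw counts of covering and of mismatched reads at each listed adenosine of a library, and the mismatch rate as a fraction, which equalled the quotient of both counts within 1e-09 in all 13050 values. The build was hg38, and SAMtools 1.3.1, Bowtie2 2.2.4 and cutadapt 1.9.3 are named, per the submitters' processing notes; how reads of near-identical genes were shared out, and how sites were listed, is not given in the sources used here. 6 repeated lines, none of them leucine, were counted as 1 each.

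In R 4.3.3, mismatched over total reads were fitted per site with a quasi-binomial logistic model (dispersion held at 1 or more, at least 20 reads in each library). Read-through was tested with limma 3.58.1 on log2 of both read counts plus 0.5, and 3′-end reads, rounded to whole numbers, with edgeR 4.0.16 (TMM, quasi-likelihood); DESeq2 1.42.0 was an alternative. All tests were two-sided, with Benjamini-Hochberg adjustment over all sites, genes or anticodons tested in a comparison and a threshold of 0.05. The replicate number was a block where the protocol splits the same RNA (AlkB-treated and untreated IP) and between IP and input, and not between the lines. Same-numbered libraries correlated in their deviations from -0.096 to 0.075 (reads, input of both lines) and from -0.29 to 0.28 over all 7 comparisons, and in no comparison were all above 0.1. Replicates differed by more than counting noise, at 1.73 to 568 units of chi-square per degree of freedom. The tests were also run on simulated data, in which mismatch rates and read-through varied by counting noise only. Such data cannot show how these tests behave at the spread between replicates found here. Named were all position 58 and anticodon adenosines, all calls, the 4 smallest p per comparison and the deepest gene per anticodon and position.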

Additional observations from a re-analysis of the deposited data

How the results depend on the processing

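Of 180 counts of leucine calls under other settings, 154 stayed within 1.5 times the reported count; of 697 single values 647 kept direction and call, 30 lost the call, 4 gained one and 16, none of them called in the reported fit, turned sign. The leucine count of 0 in the mismatch comparisons changed in 2 of 65 settings, to 1 in the IP against input of vector and 1 in knockdown with the dispersion not held at 1 or more (70 of 270 and 53 of 247 sites in all). Read-through between the lines in input had 0 leucine calls with the replicate block, as had all 52 tRNAs, and 0 to 1 with 1 library left out; the block moved no other count of leucine calls by over 1.5 times. In IP against input, 1 of the 2 calls was left in each line without genes near the depth limit, since Leu-CAG-1-1 is then not tested; leaving out a replicate gave 0 to 2 calls in vector and 0 to 1 in knockdown. By anticodon the call of Leu-CAG was lost (0 calls) with position 64 in the 3′-end window, with a minimum of 10 reads and without anticodons near the depth limit, and 0 to 1 calls were left without 1 library. The step from position 59 to 58 had 1 call with a minimum of 50 reads and 1 with a pseudocount of 2. The 3′-end reads had 2 calls without TMM, 2 with reads over all sites as library size and 2 to 4 without 1 library. Apart from what is said of fewer genes or samples, the cause was not tested.

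All sign changes came from leaving out libraries, and the values below are ranges over the libraries left out. Mismatch differences between the lines ran from -0.679 to 0.312 points in input (position 58 of Leu-CAG-1-1) and from -0.102 to 0.240 in the AlkB-treated IP (position 59). The AlkB effect in vector ran from -0.272 to 0.116 at position 58 and from -0.314 to 0.0105 at position 59 of Leu-CAG-2-1. At position 73 of Leu-CAG-1-1 it ran from -0.0607 to 0.152 in vector and from -0.108 to 0.119 in knockdown. IP minus input in vector ran from -0.274 to 0.702 at position 58 of Leu-CAG-1-1 (below 0 without replicate 1, at -0.241, and without replicate 3) and from -0.345 to 0.0187 at position 71 of Leu-CAG-2-1, and in knockdown from -0.475 to 0.0035 at position 64 of Leu-CAG-1-1. Log2 read-through differences of Leu-CAG-1-1 between the lines ran from -0.128 to 0.0503 in the AlkB-untreated IP and from -0.354 to 0.0515 in the AlkB-treated IP, and those for AlkB in knockdown from -0.520 to 0.0113. The step of Leu-AAG-4-1 ran from -0.697 to 0.0078. Depth limits what can be said of Leu-AAG, Leu-TAG and Leu-TAA, which had 6 to 60 reads at position 64 in each input library.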
